A study of Mus musculus with 2 samples.

Results

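The chemokine receptor genes Cxcr3 and Cxcr6 and their ligand genes were followed through 2 single-cell libraries of injured mouse kidney: Cxcl9 and Cxcl10, whose proteins bind CXCR3, Cxcl16, whose protein binds CXCR6, and the receptor genes Cxcr3 and Cxcr6. These 5 genes, of 32285 in each count table, were set by name and not by a cut on their values, though earlier results of these data were known. They were read in every barcode that had 500 or more unique molecular identifiers (UMIs, each standing for 1 captured RNA molecule), 200 or more genes and no more than 50% of its UMIs from mitochondria, after sorting the barcodes into cell classes by marker genes.

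The kidneys were taken on day 14 after ischaemia-reperfusion injury, made by clamping the renal artery on 1 side, and both groups of mice received 4 tamoxifen injections after it. The control library came from Cre- mice. The haplodeficient library came from Cdh5-CreERT2; Phd3f/+ mice, in which tamoxifen activates a Cre recombinase driven by the endothelial Cdh5 promoter and 1 allele of Phd3 (the gene Egln3, an oxygen-sensing prolyl hydroxylase) is floxed. The labels did not say whether Cre- mice carried the floxed allele or how many animals made up a library. With 1 library per group no difference could be tested, so each value below describes these libraries, and every interval given is a 95% interval that covers counting error only.

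Chemokines of this group are secreted or membrane-bound proteins that steer leukocytes. CXCL9 and CXCL10 are induced by interferons, bind the G-protein-coupled receptor CXCR3 and attract activated CD8 T cells, type 1 helper T cells and NK cells. CXCL16 is made as a transmembrane protein that ADAM10 and ADAM17 can shed, and its receptor CXCR6 marks T cells that settle in tissues.

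On the mouse assembly GRCm38 with GENCODE M21, all 5 are protein-coding genes. Cxcl9 (ENSMUSG00000029417) lies at chr5:92321347-92328079 and Cxcl10 (ENSMUSG00000034855) at chr5:92346638-92348889, both on the minus strand with 18558 bases between them. Cxcl16 (ENSMUSG00000018920) lies at chr11:70453983-70459984 on the minus strand, Cxcr3 (ENSMUSG00000050232) at chrX:101731535-101734269 on the minus strand and Cxcr6 (ENSMUSG00000048521) at chr9:123806475-123811760 on the plus strand. Cxcl10, Cxcl16 and Cxcr6 each overlap a gene on the opposite strand (Art3, Zmynd15 and Fyco1), and whether the counting used strand is not given in the sources used here, so reads of these pairs may not be fully separated.

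The promoters of the paired CXCR3 ligand genes are shown because these genes sit side by side and differed in which cells carried them. RefSeq promoter windows (GRCm38.p6, 250 bases before to 50 after the transcription start) were matched for 4 of the 5 genes. Capitals mark matches, on either strand, to an interferon-stimulated response element (GAAANNGAAA) or a kappa-B element (GGGANNNNCC), and both are written 5′ to 3′ in the direction of the gene.
Cxcl9, chr5:92328030-92328329, minus strand: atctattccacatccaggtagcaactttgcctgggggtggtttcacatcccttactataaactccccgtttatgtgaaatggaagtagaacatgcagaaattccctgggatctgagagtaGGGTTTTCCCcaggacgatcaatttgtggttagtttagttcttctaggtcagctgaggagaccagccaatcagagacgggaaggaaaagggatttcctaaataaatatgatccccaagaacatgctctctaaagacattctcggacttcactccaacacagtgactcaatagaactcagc
Cxcl10, chr5:92348840-92349139, minus strand: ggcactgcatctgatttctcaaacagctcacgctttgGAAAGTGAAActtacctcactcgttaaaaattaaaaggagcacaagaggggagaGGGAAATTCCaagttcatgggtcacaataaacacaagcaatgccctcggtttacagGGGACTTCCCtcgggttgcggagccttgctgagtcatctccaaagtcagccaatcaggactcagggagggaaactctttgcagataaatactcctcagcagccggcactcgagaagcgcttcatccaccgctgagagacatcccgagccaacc
The Cxcl9 window held 1 kappa-B match, with its first base at -130 from the start site. The Cxcl10 window held an interferon-stimulated response element match at -213 and kappa-B matches at -159 and -103. A gamma-activated site (TTCNNNGAA) was in neither window as spelled, and the windows of Cxcr3 and Cxcr6 held none of the 3 motifs. Among 32851 promoter windows of the same length, 3.44% held the response element, 20.7% the kappa-B element and 8.30% the gamma-activated site.

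After the filters and removal of likely doublets, 8737 control cells (median 8796 UMIs) and 9222 haplodeficient cells (median 5482.5 UMIs) were retained, and 28 barcodes occurred in both libraries. The libraries differed in make-up: leukocytes made up 15.4% and 41.8% of the cells, proximal-tubule-like cells 34.9% and 3.67%, and the median mitochondrial share was 10.1% and 2.69%. Unnamed clusters held 10.3% and 12.3% of cells. Egln3 itself was at 23.5 counts per 1000000 UMIs of the class (CPM, interval 17.8 to 30.3) in control endothelial-like cells and 21.2 (17.4 to 25.5) in haplodeficient ones, a ratio of 0.903 (0.652 to 1.26); this 3′ count checks the label only if the counted part is deleted, which the labels did not state. Classes were named "-like" from marker genes, 17 of them with at least 20 cells in both libraries, and the 5 genes were kept out of the clustering. Fewer captured cells of a class and fewer cells in the kidney cannot be told apart here.

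Cxcl9 was mostly a myeloid transcript, and both dendritic-cell-like and macrophage-like cells had more of it in the haplodeficient library. In dendritic-cell-like cells it stood at 179 CPM (interval 158 to 202, 257 UMIs in 169 cells) in control and 264 CPM (243 to 286, 611 UMIs in 258 cells) in haplodeficient, a ratio of 1.47 (1.27 to 1.71). In macrophage-like cells it stood at 14.6 CPM (11.5 to 18.3, 75 UMIs in 817 cells) and 71.4 CPM (66.3 to 76.7, 742 UMIs in 1402 cells), a ratio of 4.90 (3.86 to 6.30). Macrophage-like cells held 16.4% of all Cxcl9 UMIs in control and 50.4% in the haplodeficient library, and dendritic-cell-like cells 56.1% and 41.5%. These values depend on 1 cluster on the border of the classes, led by Retnla and Ccl17, in which 3 of 7 dendritic and 7 macrophage markers passed and which was counted as dendritic-cell-like. With its cells counted as macrophage-like instead, an alternative added after the data were seen, macrophage-like Cxcl9 was 27.1 and 66.2 CPM, a ratio of 2.44 (2.06 to 2.91), with 35.4% and 54.0% of the UMIs. The remaining dendritic-cell-like cells then had 279 and 810 CPM, a ratio of 2.91 (2.44 to 3.47), with 37.1% and 37.8%. T-cell-like cells had no Cxcl9 UMI in either library (0 of 179 cells and 0 of 1110), and dendritic-cell-like and macrophage-like intervals did not overlap in either library.

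The type 1 dendritic cluster and the border cluster went opposite ways. In the type 1 cluster, which carried Xcr1 and Clec9a and is the subset known for cross-presenting antigen, Cxcl9 stood at 318 CPM (271 to 370) in 53 control cells and 979 CPM (899 to 1064) in 51 haplodeficient cells, a ratio of 3.08 (2.59 to 3.68). In the Retnla- and Ccl17-led cluster it stood at 105 CPM (84.5 to 130) in 106 cells and 33.2 CPM (24.9 to 43.3) in 191 cells, a ratio of 0.315 (0.220 to 0.447). Against the other dendritic-cell-like cells this cluster was led by macrophage genes, among them Mrc1, C1qa, C1qb and C1qc, so it was given no subtype name. Cells with a Cxcl9 UMI made up 18.9% and 33.3% of the type 1 cells (median 9695 and 11188 UMIs), against 0% of T-cell-like cells (median 2710 and 2569 UMIs), and 9.62% and 24.0% after each cell was thinned to 1000 UMIs.

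The 4 macrophage-like clusters that could be named each had more Cxcl9 in the haplodeficient library. In the largest, which carried MHC class II genes and was led by the monocyte-attracting chemokines Ccl7 and Ccl12, the level was 24.4 CPM in 407 control cells and 123 CPM in 540 haplodeficient cells, a ratio of 5.06 (3.75 to 6.94). The second MHC class II cluster had 24.1 and 66.7 CPM and the dividing cluster 7.71 and 93.9 CPM. The cluster marked by Gpnmb and Spp1, genes of lipid-handling macrophages, had 0 UMIs in 154 control cells (3 UMIs would be 1.64 CPM) and 254 UMIs in 407 haplodeficient cells, at least 29.2-fold higher against that floor. A haplodeficient cell held 135 of those 254 UMIs, so this fold rests mostly on that cell. A shallow unnamed cluster of the class, with a median of 750 and 857.5 UMIs per cell, went the other way, with 161 CPM (69.6 to 318) in 45 control cells and 18.6 CPM (5.07 to 47.6) in 184 haplodeficient cells, a ratio of 0.115 (0.0254 to 0.431). It held 8 and 4 Cxcl9 UMIs, and the 8 control UMIs came from 1 cell.

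**Figure D1:**
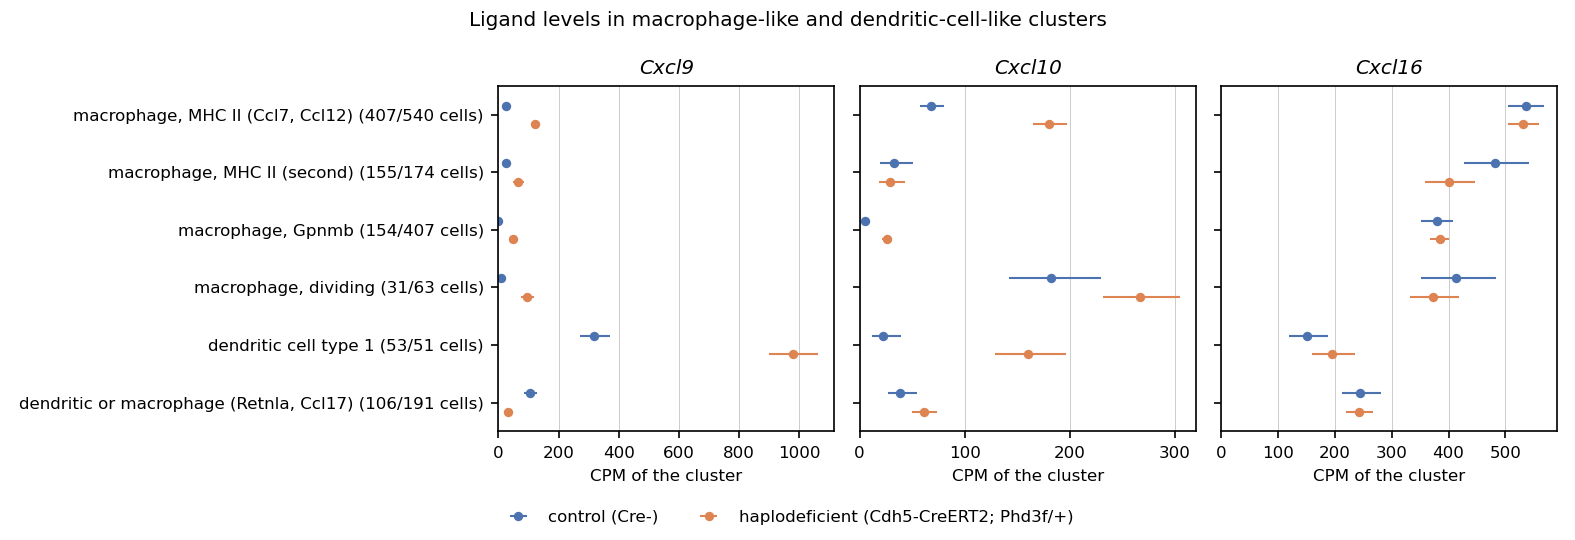
CPM of Cxcl9, Cxcl10 and Cxcl16 (one panel each, x axis) in macrophage-like and dendritic-cell-like clusters (y axis, with control and haplodeficient cell numbers); points are the control and haplodeficient libraries and bars exact Poisson 95% intervals. Cxcl9 is at 318 and 979 CPM in the type 1 dendritic cluster and at or below 123 CPM in every other cluster shown, and Cxcl16 is at 373 CPM or above in each of the macrophage-like clusters shown.

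Few cells carried most Cxcl9. A total of 2.82% of control and 4.49% of haplodeficient macrophage-like cells (median 4918 and 5476 UMIs) had a Cxcl9 UMI, and 0.900% and 2.34% after thinning. The 5 macrophage-like cells with most Cxcl9 held 58.7% of the class's Cxcl9 UMIs in control and 51.1% in the haplodeficient library; without them the levels were 6.04 and 35.2 CPM, a ratio of 5.82 (4.03 to 8.70). In the type 1 dendritic cluster the top 5 cells held 91.1% and 77.0%, and without them the levels were 31.9 and 258 CPM. Both ratios above 1 therefore remained without the cells of highest Cxcl9. The size of the macrophage-like difference did depend on how cells were grouped: on the log2(CPM + 5) scale it was 1.96, and 1.15 with the border cluster counted as macrophage-like, and 1.26 to 1.47 with a 1000-UMI minimum, finer clusters, doublets kept, each cell named alone or CPM averaged per cell. That of all dendritic-cell-like cells was 0.55 and ranged from 0.20 to 1.52 over the alternatives. The 48 Cxcl9 UMIs of control fibroblast-like cells all came from 1 cell, and these values describe that cell. Endothelial-like cells had 23 Cxcl9 UMIs in control, from 3 cells, and 9 in the haplodeficient library, from 7 cells. Their levels were 9.30 and 1.72 CPM, a ratio of 0.185 (0.0752 to 0.414). Principal- or connecting-tubule-like cells went the other way, with 0 and 36 Cxcl9 UMIs.

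Cxcl10 was spread over epithelium, endothelium and leukocytes, unlike Cxcl9. Cells outside the leukocyte clusters held 95.6% of Cxcl10 UMIs in control and 84.0% in the haplodeficient library, against 27.5% and 7.67% for Cxcl9. The leading named sources were injured-tubule-like cells (26.0%) and proximal-tubule-like cells (25.4%) in control, and descending-thin-limb-like cells (24.2%), macrophage-like cells (9.68%) and endothelial-like cells (9.16%) in the haplodeficient library. Unnamed clusters held 14.4% and 13.2%. Pericyte- or smooth-muscle-like cells had 5 and 1 UMIs, the lowest Cxcl10 levels among the stromal classes compared.

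Injured-tubule-like cells, which were led by the injury marker Havcr1 with the complement gene C3 and the adhesion gene Vcam1, had the highest control level of Cxcl10, 234 CPM (223 to 245, 1882 UMIs in 522 cells). Their haplodeficient level was 139 CPM (128 to 151, 608 UMIs in 297 cells), a ratio of 0.595 (0.542 to 0.652). The podocyte-like level of 193 CPM (164 to 225) overlapped the injured-tubule-like one in control, and was 226 CPM (211 to 243) in the haplodeficient library. The injured-tubule-like value depended on how cells were named: when each cell was named alone by its own markers the log2 ratio was 0.07, and with doublets kept it was -0.16, against -0.73.

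Most other classes carried more Cxcl10 in the haplodeficient library. Descending-thin-limb-like cells had 143 CPM (134 to 153) and 264 CPM (254 to 275), a ratio of 1.85 (1.71 to 2.00); 1 haplodeficient cell alone held 445 of the 2342 UMIs. Macrophage-like cells had 47.4 CPM (41.6 to 53.7) and 90.1 CPM (84.4 to 96.1), a ratio of 1.90 (1.65 to 2.20), and 2.01 (1.69 to 2.40) without the 5 top cells of each library. Principal- or connecting-tubule-like cells had 15.4 and 81.6 CPM, a ratio of 5.31 (4.26 to 6.69), where expected free RNA could make up 25% of the control UMIs. On the log2(CPM + 5) scale this difference was 2.09, and 2.31 with expected free RNA subtracted. It was 1.39 with each cell named alone, 1.67 as the mean of CPM per cell and 1.68 without the 5 top cells. Neutrophil-like cells, which had 2 UMIs in control and 138 in the haplodeficient library, had 15 and 143 CPM with a ratio of 9.52 (2.59 to 79.4). T-cell-like cells had 31.5 CPM (18.7 to 49.9) and 73.2 CPM (64.4 to 83.0), a ratio of 2.32 (1.44 to 3.98), and 70 of their 247 haplodeficient UMIs lay in a cluster of 21 cells led by interferon-induced genes such as Ifit3 and Rsad2, with Cxcl10 itself among its leading genes. The share of T-cell-like cells with a Cxcl10 UMI was 7.82% in control and 6.31% in the haplodeficient library, or 2.29% and 3.40% after thinning, so no order is read from these shares. The 5 highest cells held 50% of the control and 39.3% of the haplodeficient UMIs, and without them the ratio was 2.77 (1.42 to 6.18). NK-like cells had 11 UMIs in 20 control cells and 1 UMI in 58 haplodeficient cells, and the 11 came from 1 cell, so their levels describe that cell.

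Endothelial-like cells, the cell type in which the Cre is driven, had 112 CPM of Cxcl10 (99.6 to 126, 366 cells) in control and 169 CPM (158 to 181, 791 cells) in the haplodeficient library, a ratio of 1.51 (1.31 to 1.73). The cluster with Selp and Sele, adhesion genes of activated and venous endothelium, had the highest endothelial level, 570 CPM (458 to 701) in 41 cells and 915 CPM (802 to 1039) in 62 cells. The capillary cluster had 175 and 334 CPM, a ratio of 1.90 (1.36 to 2.73), and the descending vasa recta cluster 36.4 and 37.9 CPM, a ratio of 1.04 (0.605 to 1.83). A glomerular cluster had 215 and 184 CPM, with a ratio of 0.856 (0.619 to 1.20) whose interval includes 1. A cluster of 17 and 27 cells that carried glomerular endothelial markers, but was left unnamed because its leading genes did not match that name, had 223 and 113 CPM, a ratio of 0.504 (0.357 to 0.713). The activated or venous cluster was highest in both libraries, while the glomerular cluster lay above the capillary one in control, with overlapping intervals, and below it in the haplodeficient library. The class ratio was 1.85 (1.56 to 2.22) without the 5 top cells. On the log2(CPM + 5) scale the class difference of 0.57 was 0.23 with each cell named alone, 0.35 with the same cluster weights in both libraries and 0.96 with doublets kept.

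**Figure D2:**
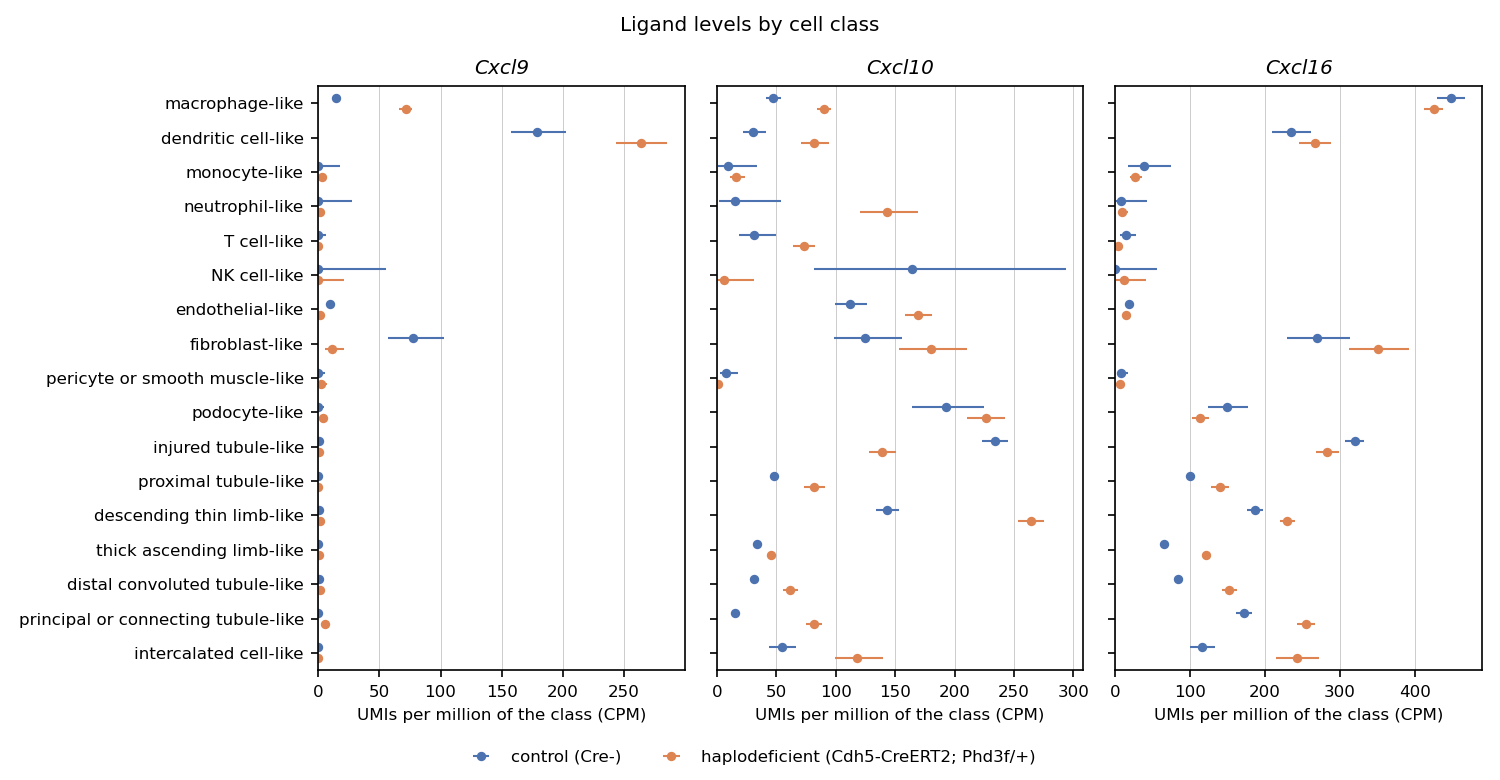
CPM (x axis) of the 3 ligand genes in the 17 classes with at least 20 cells in both libraries (y axis); points are the control and haplodeficient libraries and bars exact Poisson 95% intervals. Cxcl9 reaches 50 CPM in dendritic-cell-like, haplodeficient macrophage-like and control fibroblast-like cells, while Cxcl10 and Cxcl16 are carried by epithelial classes too.

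Cxcl16 was highest in macrophage-like cells and differed little there. It stood at 448 CPM (430 to 466, 2306 UMIs) in control and 425 CPM (413 to 438, 4421 UMIs) in the haplodeficient library, a ratio of 0.950 (0.903 to 0.999). Without the 5 top cells the ratio was 0.954 (0.906 to 1.005), with an interval that includes 1, and per cell instead of per UMI it was 1.12 (1.06 to 1.18). The MHC class II cluster led by Ccl7 and Ccl12 had 536 and 531 CPM and the Gpnmb cluster 379 and 384 CPM. It was a common transcript, with a UMI in 80.8% and 78.3% of macrophage-like cells against 2.06% and 2.18% of pericyte- or smooth-muscle-like cells (median 3190.5 and 4152 UMIs). After thinning these shares were 37.8% and 34.9%, against 0.541% and 0%. The small mature dendritic cluster with Ccr7 and Fscn1 stood higher still, at 666 CPM (500 to 869) in 10 cells and 930 CPM (765 to 1120) in 16 cells.

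In epithelium the distal classes carried more Cxcl16 in the haplodeficient library. Intercalated-cell-like cells had 116 CPM (100 to 133) and 242 CPM (215 to 272), a ratio of 2.09 (1.74 to 2.52). Thick-ascending-limb-like cells had 65.2 and 121 CPM, a ratio of 1.86 (1.69 to 2.04), and distal-convoluted-tubule-like cells 84.1 and 152 CPM, a ratio of 1.81 (1.64 to 2.00). Principal- or connecting-tubule-like cells had 172 and 254 CPM, a ratio of 1.48 (1.37 to 1.60). In the thick ascending limb and distal convoluted tubule the median eligible gene also shifted up, by 0.13 and 0.11 on the log2 scale, and the mitochondrial share of UMIs was lower in the haplodeficient library; over non-mitochondrial UMIs the Cxcl16 ratios were 1.66 and 1.65. Proximal-tubule-like cells had 99.3 and 140 CPM, where the median gene shifted by 0.20 and the ratio of 1.40 became 1.21 over non-mitochondrial UMIs. Whether these wider shifts contribute to the Cxcl16 values was not tested.

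Other classes placed below macrophages. The control order was injured-tubule-like (320 CPM), fibroblast-like (269) and dendritic-cell-like (234); fibroblast-like intervals (230 to 313) overlapped both neighbours. The haplodeficient order was fibroblast-like (351 CPM), injured-tubule-like (283) and dendritic-cell-like (267), and the last pair overlapped. Podocyte-like cells had 149 and 113 CPM, a ratio of 0.763 (0.623 to 0.941). Endothelial-like cells had only 18.6 and 14.3 CPM, of which free RNA, at 110 and 194 CPM of Cxcl16 in near-empty barcodes, could supply an expected 27% and 76%. Cells outside the leukocyte clusters together held 83.1% and 71.4% of Cxcl16 UMIs. Proximal-tubule-like cells held 24.1% in control and 3.18% in the haplodeficient library, macrophage-like cells 14.6% and 24.7%, and unnamed clusters 17.1% and 19.3%.

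Counted over classes, the ligands were more often higher than lower. A gene was eligible in a class where its mean over both libraries was at least 50 CPM with at least 30 UMIs. Cxcl10 was eligible in 11 classes, with the interval of the CPM ratio above 1 in 9, below 1 in 1 and including 1 in 1. Among the 9, fibroblast-like and dendritic-cell-like cells had intervals that included 1 without their 5 top cells. The ratios were then 0.850 (0.377 to 1.97) and 1.90 (0.998 to 3.88). The macrophage-like, endothelial-like and T-cell-like intervals stayed above 1 without theirs. Cxcl16 was eligible in 11, with 7 above, 3 below (macrophage-like cells among them, by the narrow margin given above) and 1 including 1. Over all 55079 eligible pairs of a gene and a class, 27.6% lay above 1 and 22.4% below. A stricter size rule asked for at least a 2-fold difference and separate intervals, and no member passed it in macrophage-like cells, where 27 of 2758 eligible genes (0.979%) did; Cxcl9 was below the eligibility level there.

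**Figure D3:**
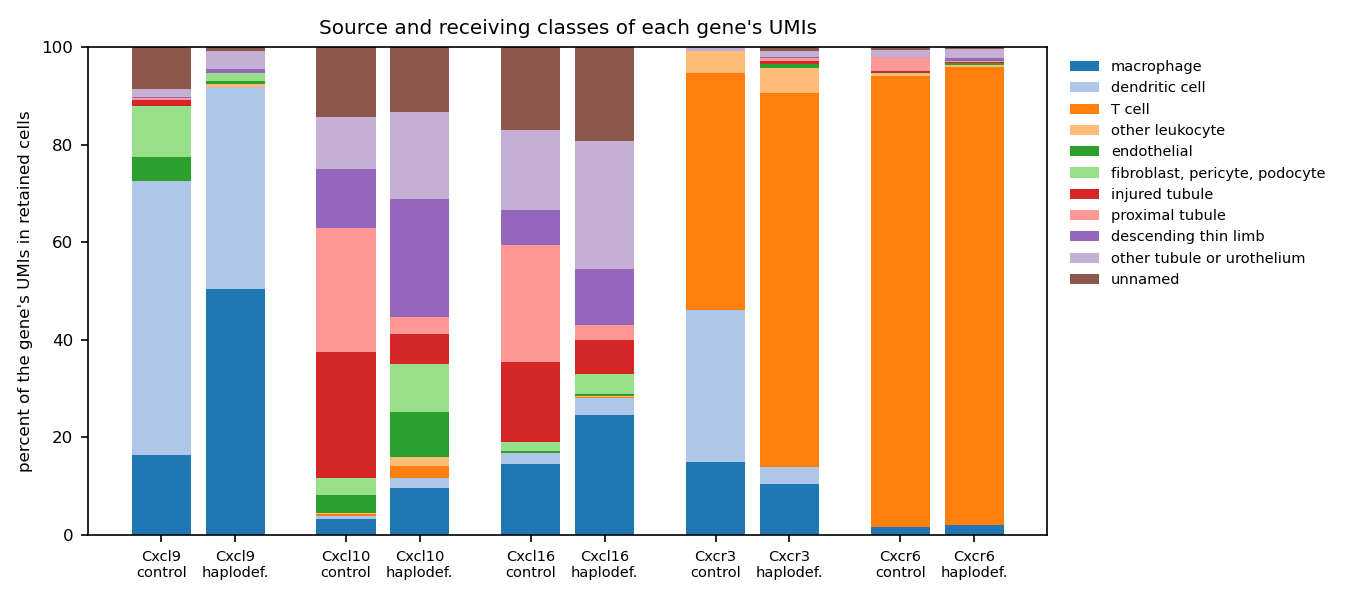
Share of each gene's UMIs in retained cells (y axis, percent) by class or group of classes (colours), with 1 bar for each library of each gene (x axis). Dendritic-cell-like cells hold 56.1% of control Cxcl9 and macrophage-like cells 50.4% of haplodeficient Cxcl9, tubule classes hold large shares of Cxcl10 and Cxcl16, and T-cell-like cells hold 92.5% and 93.8% of Cxcr6.

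Cxcr6 was carried almost only by T-cell-like cells, and its level per T-cell-like cell hardly differed. It stood at 496 CPM (440 to 557, 283 UMIs in 179 cells) in control and 470 CPM (447 to 493, 1584 UMIs in 1110 cells) in the haplodeficient library, a ratio of 0.947 (0.834 to 1.08). These cells held 92.5% and 93.8% of all Cxcr6 UMIs. A Cxcr6 UMI was found in 60.9% and 58.4% of them (median 2710 and 2569 UMIs), against 0.203% and 0.708% of cells outside the leukocyte clusters (median 10324 and 8016.5 UMIs). After thinning the shares were 31.4% and 35.4%, against 0.0425% and 0.0386%. Near-empty barcodes held 1.10 CPM of Cxcr6 in control and 13.6 CPM in the haplodeficient library, and whether that free RNA supplied the UMIs outside leukocytes was not tested.

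Among the 3 T-cell-like clusters with at least 20 cells in both libraries the order of Cxcr6 was the same. The gamma-delta or type 17 cluster, with Trdc, Tcrg-C1 and Il17a among its markers, was highest at 876 CPM (703 to 1080) in 25 cells and 988 CPM (888 to 1095) in 115 cells, a ratio of 1.13 (0.890 to 1.44). The CD8 cluster followed at 621 CPM (503 to 757) and 497 CPM (456 to 542), a ratio of 0.801, and the CD4 cluster at 335 CPM (262 to 421) and 328 CPM (294 to 364), a ratio of 0.979. All 7 T-cell markers passed in the CD4 cluster, but its subtype name rests on a tie. There 3 of 5 CD4 markers passed, and so did 3 markers of innate lymphoid type 2 cells. Its leading genes against other T-cell-like cells included Il1rl1, Tnfrsf4 and Areg beside Cd4. Control intervals of the gamma-delta or type 17 and CD8 clusters overlapped, and haplodeficient ones did not. A second CD4 cluster, led by the type 17 cytokine genes Il17f and Il22, had 488 CPM (252 to 852) in 10 control cells and 704 CPM (600 to 822) in 74 haplodeficient cells. A Klra-led cluster of 74 cells, all haplodeficient, had 301 CPM (231 to 386). NK-like cells had 1 and 5 UMIs, and dendritic-cell-like cells none in either library.

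Cxcr3 was carried mainly by T-cell-like cells, which held 48.7% of its UMIs in control and 76.7% in the haplodeficient library. Smaller shares lay in macrophage-like cells and, mostly in control, in type 1 dendritic cells. In T-cell-like cells Cxcr3 stood at 96.4 CPM (72.6 to 125, 55 UMIs) and 103 CPM (92.6 to 115, 348 UMIs), a ratio of 1.07 (0.804 to 1.45). The CD8 cluster had 115 and 139 CPM and the CD4 cluster 105 and 117 CPM, with overlapping intervals between these clusters in each library. The gamma-delta or type 17 cluster had 5 UMIs in 25 control cells and 1 UMI in 115 haplodeficient cells, or 49.8 CPM (16.2 to 116) and 2.73 CPM (0.0691 to 15.2). A Cxcr3 UMI was found in 22.9% and 22.8% of T-cell-like cells, against 0.0135% and 0.261% of cells outside the leukocyte clusters, and in 9.71% and 10.1% after thinning. NK-like cells had 29.9 CPM (3.62 to 108) and 56.5 CPM (27.1 to 104).

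The type 1 dendritic cluster had less Cxcr3 in the haplodeficient library. It held 34 UMIs in 53 control cells, or 64.3 CPM (44.5 to 89.8), and 13 UMIs in 51 haplodeficient cells, or 22.9 CPM (12.2 to 39.1), a ratio of 0.356 (0.172 to 0.692). The share of its cells with a Cxcr3 UMI was 47.2% and 23.5%, and 7.69% and 2.00% after thinning. This was the opposite direction to Cxcl9 in the same cells, and the cluster held 30.1% of control Cxcr3 UMIs and 2.86% of haplodeficient ones. Macrophage-like cells stood far lower, at 3.30 and 4.52 CPM.

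**Figure D4:**
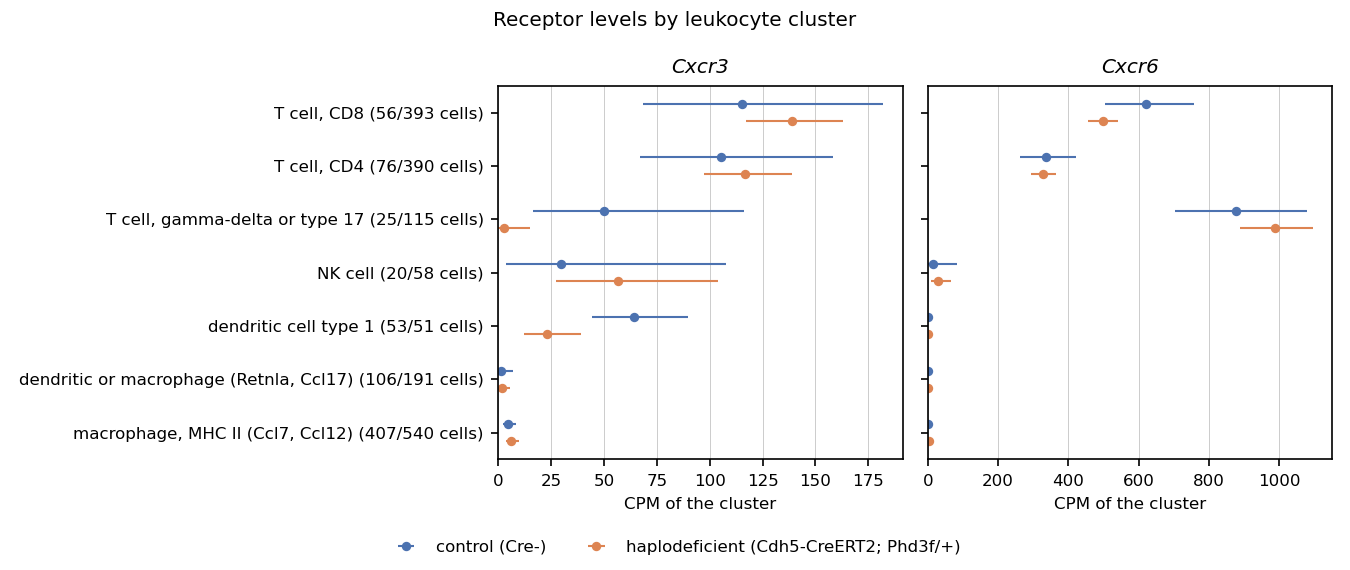
CPM (x axis) of Cxcr3 and Cxcr6 in leukocyte clusters (y axis, with control and haplodeficient cell numbers); points are the control and haplodeficient libraries and bars exact Poisson 95% intervals. Cxcr6 is highest in the gamma-delta or type 17 cluster (876 and 988 CPM) and the type 1 dendritic cluster carries Cxcr3 (64.3 and 22.9 CPM) with no Cxcr6.

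Over all T-cell-like cells, which pool subsets that differ in both receptors, Cxcr6 was about as common with a Cxcr3 UMI as without. Among T-cell-like cells with a Cxcr3 UMI, 58.5% of control and 59.7% of haplodeficient cells also had a Cxcr6 UMI, against 61.6% and 58.0% of those without one. After thinning the haplodeficient values were 35.5% and 35.4%, and the control values 41.2% (interval 18.4 to 67.1) and 30.4% (23.3 to 38.2). Within the CD8 cluster Cxcr6 was found in 70.8% (61.5 to 79.0) of haplodeficient cells with a Cxcr3 UMI and 61.4% (55.5 to 67.2) of those without, and in 49.0% (34.8 to 63.4) and 39.3% (34.1 to 44.8) after thinning, with overlapping intervals. In control it was found in 58.8% (32.9 to 81.6) of 17 CD8 cells with a Cxcr3 UMI and 76.9% (60.7 to 88.9) of 39 without. The CXCR3 ligands did overlap in cells: among macrophage-like cells with a Cxcl9 UMI, 8 of 23 control and 19 of 63 haplodeficient cells had a Cxcl10 UMI, against 54 of 794 and 143 of 1339 of those without. After thinning this was 1 of 7 and 7 of 30 cells, against 26 of 771 and 65 of 1250, so the control pair could not be resolved at that depth.

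Across the whole library the receptors differed far more than they did within T cells. Per 1000 retained cells Cxcr6 had 35.0 UMIs in control and 183 in the haplodeficient library, a ratio of 5.23, and Cxcr3 had 12.9 and 49.2, a ratio of 3.81. T-cell-like cells were 2.05% of control cells (interval 1.76 to 2.37) and 12% of haplodeficient cells (11.4 to 12.7). The levels exchanged here are UMIs per cell and not CPM, so they also carry differences in depth between the libraries. In thick-ascending-limb-like cells, for example, the Cxcl16 ratio was 3.15 per cell and 1.86 in CPM. Giving the control levels the haplodeficient class shares produced ratios of 5.50 for Cxcr6 and 3.73 for Cxcr3, while giving the haplodeficient levels the control shares produced 1.15 and 1.31. For Cxcl9 the observed ratio was 3.05, with 2.03 from levels alone and 1.41 from shares alone, the larger of the 2 being that from levels. Cxcl10 (1.27) and Cxcl16 (1.08) had levels-only ratios of 1.42 and 1.33 and shares-only ratios of 0.839 and 0.860, which lie on opposite sides of 1.

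**Figure D5:**
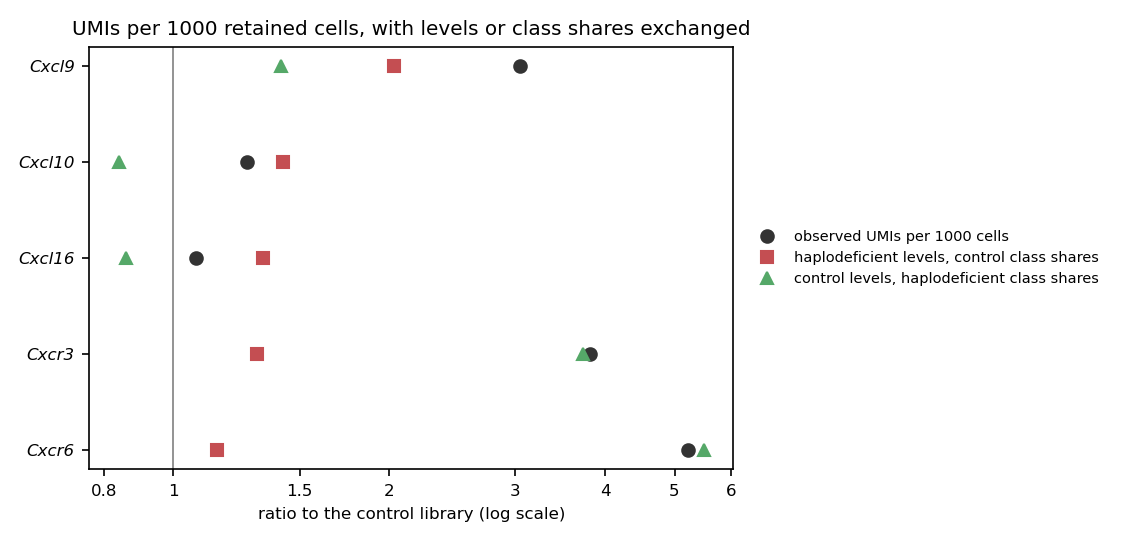
Ratio of UMIs per 1000 retained cells to the control library (x axis, log scale) for each of the 5 genes (y axis): circles are observed, squares exchange only the levels within classes (UMIs per cell, not CPM) and triangles exchange only the class shares. The receptors' observed ratios of 3.81 and 5.23 lie beside the shares-only points, and that of Cxcl9 (3.05) lies nearer the levels-only point.

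The surrounding pathway genes were read from set lists, which were chosen with earlier results of these data known. In macrophage-like cells, 13 of 14 genes of interferon-gamma response, T-cell-activating cytokines and chemokine shedding had a row and 8 were eligible; none passed the size rule. Genes with ratio intervals above 1 included Irf1 (98.2 and 132 CPM), a transcription factor induced by interferon, and Tnf (133 and 216 CPM), the inflammatory cytokine. The intervals lay below 1 for the receptor subunit Ifngr1 (252 and 202 CPM), the kinase Jak1 (269 and 168 CPM) and the sheddase Adam17 (156 and 131 CPM). The median log2 ratio of the 8 was -0.07, against -0.01 for all eligible genes. Il12b, a subunit of the cytokine IL-12 that induces interferon-gamma in T cells, was too low to be eligible, with 10 UMIs in control and 130 in the haplodeficient library, or 1.94 and 12.5 CPM.

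In T-cell-like cells 13 of 17 genes for type 1 effector and tissue-resident states were eligible and 2 passed the size rule, beside 80 of 3121 genes (2.56%). The list was not independent of these data, so no enrichment is read from these counts. Ifng, the cytokine that induces Cxcl9, stood at 85.9 CPM (63.5 to 114, 49 UMIs) and 299 CPM (281 to 318, 1009 UMIs), a ratio of 3.48 (2.62 to 4.74). Il12rb2, a chain of the IL-12 receptor, stood at 151 CPM (121 to 186) and 65.2 CPM (56.9 to 74.4), a ratio of 0.433 (0.336 to 0.562). Cd69, an early activation and residency marker, had a ratio of 1.71 (1.37 to 2.15), and Tbx21, the type 1 master transcription factor, 1.48 (1.08 to 2.07). Genes with intervals below 1 included Stat4 (0.717), Il18r1 (0.601) and the exit receptor gene S1pr1 (0.644). The median log2 ratio of the 13 was 0.06, against -0.05 for all eligible genes, and of the 5 genes Cxcl10 passed the rule in these cells while Cxcr3 and Cxcr6 did not. The Cxcl10 pass was narrow, with a log2 ratio of 1.10 against a limit of 1. It fell below that limit with each cell named alone (0.90), as the mean of CPM per cell (0.92) and with the same cluster weights in both libraries (0.94).

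Over the 34 profiles formed by 17 classes in 2 libraries, each gene had close companions among 8842 genes, by Pearson's r of log2(CPM + 5). Cxcl9 was nearest to Batf3 (0.90), a transcription factor of type 1 dendritic cells, then Ccl17 and Slamf8. Cxcl10 had looser companions, Irgm1 (0.72), an interferon-induced GTPase, Carhsp1 and Vcam1. Cxcl16 was nearest to Myof (0.88), then Plxdc2 and Scpep1. Cxcr3 was nearest to the T-cell adaptor gene Grap2 (0.96), then Cd226 and Il2ra, and Cxcr6 to Themis (0.995), Pdcd1 and Lat. Profiles of the same library share its depth and free RNA, so these correlations are descriptions.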

How the data were processed

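Each library was a 10x 3′ v3.1 single-cell RNA library of kidney, deposited as UMI counts per gene and barcode. The count matrices were made by the authors with Cell Ranger 4, per the file headers, and the build was mm10, per the submitters' processing notes; read-level settings are not given in the sources used here. The 2 matrices held 1342632 and 1430043 barcodes and 134190236 and 114668145 UMIs. Everything else was computed from those counts.

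Barcodes with at least 500 UMIs, 200 genes and at most 50% mitochondrial UMIs were kept. Scanpy 1.11.5 scored doublets with Scrublet, and the highest-scoring 7.56% and 8.02% were removed, a rate set by the number of cells. Cells were clustered (2000 variable genes without the 5 genes and the pathway lists, 30 principal components, 15 neighbours, leidenalg 0.10.2 at resolution 1), leukocytes again on their own. A cluster was named from fixed markers when at least 3 were enriched, the rule for enrichment being set after the data were seen. UMIs were summed per class and library and given as CPM of that sum, with exact Poisson intervals for levels, exact conditional binomial intervals for ratios and Clopper-Pearson intervals for shares (SciPy 1.17.1). Fold changes called by the size rule used log2(CPM + 5). Free RNA was the summed profile of barcodes with 1 to 100 UMIs. There was 1 library per group, so no test was made. The size rule was run on simulated counts drawn from 1 pooled profile with counting error only. These counts hold no spread between cells or libraries, so they do not show how the rule behaves on the real data. Beside the 5 genes, the genes named were the 2 pathway lists and the 3 most correlated genes of each. Some members of the lists are counted but not reported by name here. The genes and lists were chosen with earlier results of these data known. Subtypes led by more defining markers of a different class than of their own stayed unnamed, a rule set after the data were seen. Also added then were 3 alternatives (non-mitochondrial totals, leaving out the 5 top cells, and counting the Retnla- and Ccl17-led cluster as macrophage-like) and the repeats for classes other than the macrophage-like and T-cell-like ones. Protein sequences were not used here.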

Additional observations from a re-analysis of the deposited data

Results flagged for a closer look

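Some genes went one way in most classes and the other way in a few, with ratio intervals on opposite sides of 1; with 1 library per group, none of these differences between classes was tested. The haplodeficient-to-control CPM ratio of Cxcl10 was 0.595 in injured-tubule-like cells, while 9 other classes lay above 1. Among those 9, the fibroblast-like (0.377 to 1.97) and dendritic-cell-like (0.998 to 3.88) intervals included 1 without the 5 top cells. For Cxcl16, 7 classes lay above 1 and 3 below, with ratios of 0.886 in injured-tubule-like, 0.950 in macrophage-like and 0.763 in podocyte-like cells; the macrophage-like interval ended at 0.999 and included 1 without the 5 top cells (0.906 to 1.005), and the ratio per cell was 1.12. Cxcl9 had a ratio of 3.08 in the type 1 dendritic-cell-like cluster and 0.315 in the cluster led by Retnla and Ccl17, which lay on the border with macrophages.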

How the results depend on the processing

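Over 13 alternatives in macrophage-like cells, Cxcl10 had log2 ratios of 0.82 to 1.07, the highest (same cluster weights in both libraries) just above its interval, which ended at 1.06, and Cxcl16 of -0.11 to -0.02, within its interval. Over 12 in T-cell-like cells, Cxcr6 had -0.13 to 0.03 and Cxcr3 -0.07 to 0.32, within their intervals. The Cxcl9 log2 ratio in macrophage-like cells, 1.96, stayed above 0 but was 1.41 as the mean of CPM per cell, 1.33 with each cell named alone, 1.47 at resolution 2, 1.26 at a minimum of 1000 UMIs, 1.40 with doublets kept and 1.15 with the border cluster counted as macrophage-like. For the last the added cells are the only change; for the others the cause was not tested, and the number of dendritic-cell-like cells changed with these groupings too. The count of induction and shedding genes past the size rule, 0, became 1 with no filter on CPM, and that of receiving-cell genes was 2 in every alternative. Outside these results, Cxcl10 in injured-tubule-like cells turned from -0.73 to 0.073 with each cell named alone, and Cxcl16 there from -0.17 to 0.044 as the mean per cell and 0.024 with doublets kept. No paired analysis was possible because each group has 1 library, which is also why no replicate could be left out. Depth limits ratios that rest on few control UMIs, such as 18 for Cxcl10 and 55 for Cxcr3 in T-cell-like cells.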
